A study of Mus musculus with 16 samples.

Results

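The receptors for the colony-stimulating factors and 2 of their ligands were examined in brain macrophages of bone marrow chimeras. The 8 genes are Csf1r with its ligands Csf1 and Il34, the GM-CSF receptor genes Csf2ra, Csf2rb and Csf2rb2, the G-CSF receptor gene Csf3r, and Flt3, a receptor kinase related to CSF1R. They were taken by symbol from the 24411 genes of the exon count table, with no threshold on a measured value. The chimeras were WT C57BL/6J mice that had been irradiated with 950 cGy, at 6 weeks of age per the study's text, and had received congenic WT bone marrow carrying the CD45.1 allele. Brain cells that were positive for CD11b and negative for Ly6C and Ly6G were sorted by low CD45.1 (engrafted cells) or low CD45.2 (host microglia), both from each of 8 mice. Mice 1 to 4 had received 2.5 mg/kg LPS, a bacterial endotoxin that triggers systemic inflammation, 12 h before, and mice 5 to 8 had not been injected. This made 4 groups of 4 libraries. The sample labels allow 3.5 or 9 months between transplantation and analysis, and the study's text places the challenge at 9 months. The host microglia had been exposed to the same irradiation as the rest of the recipient and were not naive cells, and no unirradiated mouse was analysed here.

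CSF1R is a receptor tyrosine kinase that microglia need to survive, and CSF1 and IL-34 are its ligands, IL-34 being made mainly by neurons in the forebrain. The receptor for GM-CSF pairs a ligand-binding alpha chain, encoded by Csf2ra, with the common beta chain, encoded by Csf2rb, which the IL-3 and IL-5 receptors share. Mice carry another beta chain gene, Csf2rb2, whose product serves IL-3. These receptors and the G-CSF receptor have no kinase of their own and signal through JAK kinases and STAT factors. Csf3r is best known from neutrophils, and Flt3 from blood progenitors and dendritic cells.

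Each library held between 395283 and 1203597 reads assigned to genes. Values are given as CPM, the reads of a gene relative to all gene reads of its library after TMM scaling, and because the libraries were primed at the 3′ end, levels were compared between groups and not between genes. A count of 0 allows up to 3 reads, which was 2.39 to 8.41 CPM depending on the library, and covers counting error only. The engrafted library of challenged mouse 4 stood apart. It had the fewest reads, and its mean correlation with the other libraries of its group was 0.863, against at least 0.917 in the other 15 libraries. Some values of the 8 genes that move with this library are also given without it, and the other genes named were fitted with all libraries only. The summed CPM of 8 microglia markers was 18800 to 21700 in unchallenged host microglia, 10400 to 12300 in unchallenged engrafted cells, 7760 to 8820 in host microglia after LPS and 3050 to 4230 in engrafted cells after LPS. All 8 had more than 3 reads in at least 1 library of each group. Sall1 went down to 3.37 CPM in unchallenged and 2.80 CPM in challenged engrafted cells, within the limit of those libraries. The sort gate was meant to remove monocytes and neutrophils. In engrafted cells the sum of 7 monocyte markers was 172 to 301 CPM without and 934 to 1910 CPM after LPS, against 13.6 to 27.6 and 8.03 to 32.0 CPM in host microglia. The engrafted means of Ly6c2, Plac8 and Chil3 rose most with LPS, from 30.1, 20.8 and 22.1 CPM to 716, 405 and 210 CPM. Vcan and Treml4 rose less, Ccr2 fell from 155 to 46.2 CPM, and Ace had 9.35 and 9.15 CPM. The sum of 10 neutrophil markers was 293 to 1360 CPM in engrafted cells without LPS and 2790 to 4880 CPM after it, while host microglia had 0 to 23.5 and 86.2 to 268 CPM. After LPS most of this sum was Lcn2 (2380 to 4370 CPM in engrafted cells), a gene of the acute phase response. The granule genes S100a9 and S100a8 had means of 237 and 132 CPM in engrafted cells without LPS and 116 and 85.6 CPM after it, against at most 7.97 CPM in a host group. Ngp had 96.7 and 80.1 CPM in the engrafted groups, and Ly6g, which defines neutrophils, had at most 2 reads in any library.

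In these bulk libraries a lower value can stand for fewer cells that express a gene or for less RNA per cell, and the 2 cannot be told apart. A gene is said to have passed where the edgeR adjusted p was under 0.05, and to be called where its log2 fold change was also above 1 in size. Between engrafted cells and host microglia without LPS, 1 of the 6 members that could be tested was called, where 11% of all 8042 tested genes were, and 3 of 6 passed, where 27.3% of genes did. After LPS 1 of 6 was called, against 11.1% of 7843 genes, and 2 of 6 passed, against 17.2%. LPS in engrafted cells called 2 of 5 members, against 21.5% of 7609 genes, and 4 of 5 passed, against 38.7%. In host microglia LPS called 3 of 6, against 18% of 8238 genes, and 4 of 6 passed, against 39.7%. None of the 6 members tested for an interaction of population and challenge was called or passed with edgeR, where 4.95% of 8847 genes were called and 5.88% passed. At an unadjusted p under 0.05 the interaction had 1 member, Csf3r, and DESeq2 called 0 of 6. The median log2 fold change of the tested members was -0.32 without LPS and -0.33 after LPS for engrafted cells against host microglia, beside medians of 0.02 and -0.01 over all tested genes, and -0.24 and 0.01 for LPS in engrafted cells and in host microglia, beside -0.01 and 0.01. Il34 and Flt3 had too few reads for any of these tests, and Csf1 for that of LPS in engrafted cells.

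**Figure D1:**
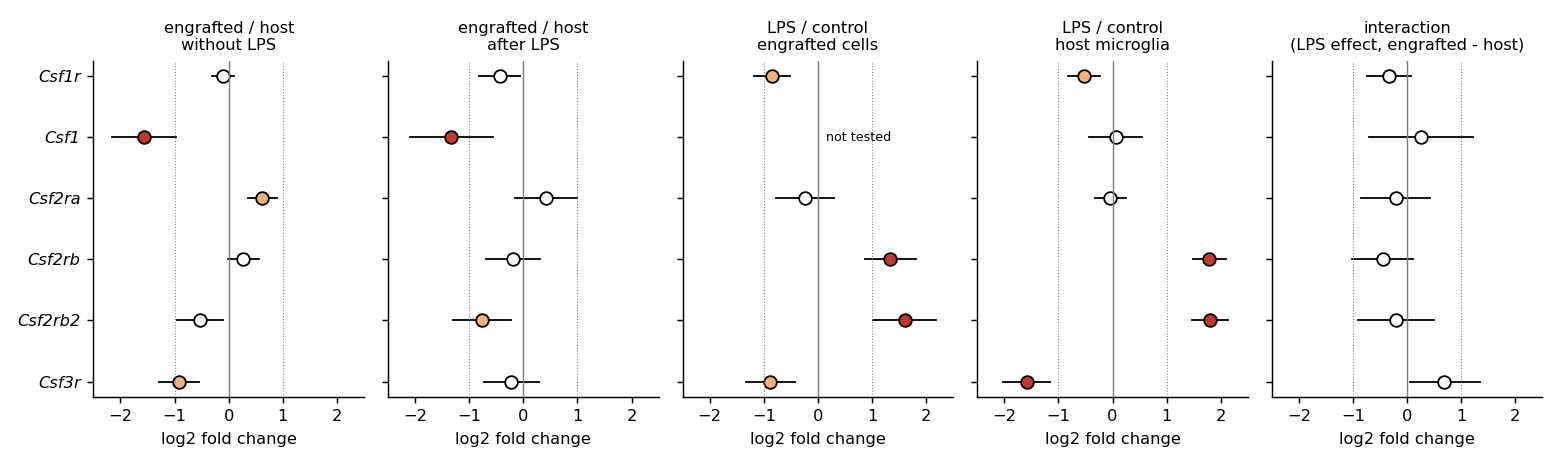
Log2 fold changes of 6 members from edgeR in 4 comparisons and for the interaction, with 95% intervals as lines. Dark red points are called, light orange points passed an adjusted p of 0.05 at under 2-fold, and open points did not pass. The 2 beta chain genes lie to the right in both LPS panels, and Csf1 lies to the left in both comparisons of engrafted cells with host microglia.

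Csf1, which encodes the ligand M-CSF, was lower in engrafted cells than in host microglia. The gene lies on the minus strand of chromosome 3 (mm9, chr3:107543966-107563387). In unchallenged engrafted cells of mice 5 to 8 it had 13.1, 10.1, 13.1 and 10.8 CPM, from 6 to 13 reads per library, and in host microglia of the same mice 35.1, 34.0, 31.1 and 49.0 CPM. No engrafted library reached a host library, and 26.6% of tested genes likewise did not overlap. The means were 11.8 ± 1.55 and 37.3 ± 7.99 CPM (SD, n = 4 each), with a log2 fold change of -1.57 ± 0.29 (SE, edgeR adjusted p = 0.000122). This was the only member called in that comparison. After LPS, engrafted cells of mice 1 to 4 had 24.6, 17.1, 10.4 and 2.80 CPM, the last from 1 read, and host microglia 32.1, 27.9, 51.9 and 45.9 CPM. The groups again did not overlap, as for 20.6% of tested genes, and engrafted cells were lower in 8 of 8 mice, at 6.11 to 76.6% of the host value of the same mouse. The log2 fold change after LPS was -1.33 ± 0.36 (SE, edgeR adjusted p = 0.0156). Without the engrafted library of mouse 3 it was -1.15 with an adjusted p of 0.059 (edgeR), and without the host library of mouse 3 -1.17 with 0.0548 (edgeR), so that the call after LPS depended on each of these libraries. Without the engrafted library of mouse 4 it was -1.12 (edgeR adjusted p = 0.0182). Over all 15 alternatives the adjusted p was 0.00047 to 0.059. In host microglia LPS did not change Csf1 detectably (log2 fold change 0.06, 95% interval -0.43 to 0.54, edgeR adjusted p = 0.871). In engrafted cells, where the gene was below the count filter, the means with and without LPS were 13.7 ± 9.31 and 11.8 ± 1.55 CPM (two-sided exact permutation test, p = 0.69). Among markers of other brain cells, the summed CPM of 6 astrocyte markers was also lower in engrafted cells (11.2 to 28.7 CPM) than in host microglia (148 to 269 CPM). In host microglia most of this was Slc1a3, a glutamate transporter gene that microglia can express, with means of 206 CPM without and 177 CPM after LPS against 9.72 and 11.6 CPM in engrafted cells. The other 5 markers were at 16.1 CPM or less in each library. The part of such cells in the Csf1 difference was not tested.

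The promoter of Csf1 is shown because the gene differed between populations in both states while LPS did not move it detectably. These are the 250 bases before the RefSeq start (GRCm38.p6, minus strand, chr3:107760470-107760719), and the capitals mark a match to the NF-kB motif, which lies on the opposite strand, 154 to 145 bases before the start. Of 32841 promoter windows of the same length, 3.9% hold this motif on either strand.

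Csf1: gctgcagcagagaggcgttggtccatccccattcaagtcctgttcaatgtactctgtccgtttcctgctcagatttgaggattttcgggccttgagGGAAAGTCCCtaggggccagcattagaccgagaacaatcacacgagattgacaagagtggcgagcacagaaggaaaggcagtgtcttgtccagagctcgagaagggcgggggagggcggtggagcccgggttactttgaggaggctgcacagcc

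Il34 was at the limit of detection. The deposited table had 2 reads of this gene (minus strand, mm9, chr8:113265729-113329824) in the host library of unchallenged mouse 5, which is 2.93 CPM, and 0 reads in the other 15 libraries. That library also had the highest sum of 7 neuronal markers, 164 CPM, against 2.80 to 57.3 CPM in the other 15. The part of neuronal RNA in these reads was not tested.

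Csf1r was abundant in each group and fell with LPS in both populations. The counted model of the gene (plus strand, mm9, chr18:61265226-61290793) ends before the GENCODE annotation of the same build, which runs to 61291803, so reads from the last stretch of the longer model were not counted. Unchallenged engrafted cells of mice 5 to 8 had 4920, 4820, 5060 and 4810 CPM, and host microglia 5320, 5190, 4920 and 6560 CPM. The ranges overlapped, and the log2 fold change of -0.11 (95% interval -0.31 to 0.10, edgeR adjusted p = 0.477) was not larger than the spread between libraries. After LPS, engrafted cells of mice 1 to 4 had 2440, 3100, 2930 and 2690 CPM, and host microglia 3820, 3320, 3730 and 4490 CPM. Every challenged library was below every unchallenged library of its population, and challenged and unchallenged libraries did not overlap for 35% of tested genes in engrafted cells and 35.7% for host microglia. LPS lowered Csf1r by a log2 fold change of -0.85 ± 0.16 in engrafted cells (SE, edgeR adjusted p = 0.000302) and by -0.53 ± 0.15 in host microglia (SE, edgeR adjusted p = 0.0061), both under 2-fold. Over all 15 alternatives for each, the adjusted p stayed between 3.01e-09 and 0.00171 and between 0.00178 and 0.0223.

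The summed microglia markers given above were also lower after LPS in both populations and lower in engrafted cells, and their part in the Csf1r values was not tested. After LPS the engrafted libraries were all below the host libraries, yet the log2 fold change of -0.44 ± 0.18 did not pass (SE, edgeR adjusted p = 0.109). It passed when libraries were scaled by their totals (-0.60, adjusted p = 0.023 by edgeR) and when all 16 libraries were fitted together (-0.45, adjusted p = 0.0217 by edgeR). The difference between the 2 LPS effects was -0.33 on the log2 scale (95% interval -0.74 to 0.08, edgeR adjusted p = 0.386), and a stronger fall in engrafted cells was not shown. By mean CPM the groups ordered as unchallenged host microglia (5500 ± 730), unchallenged engrafted cells (4900 ± 115), challenged host microglia (3840 ± 483) and challenged engrafted cells (2790 ± 286; SD, n = 4 each), and of these neighbours only the first 2 overlapped.

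**Figure D2:**
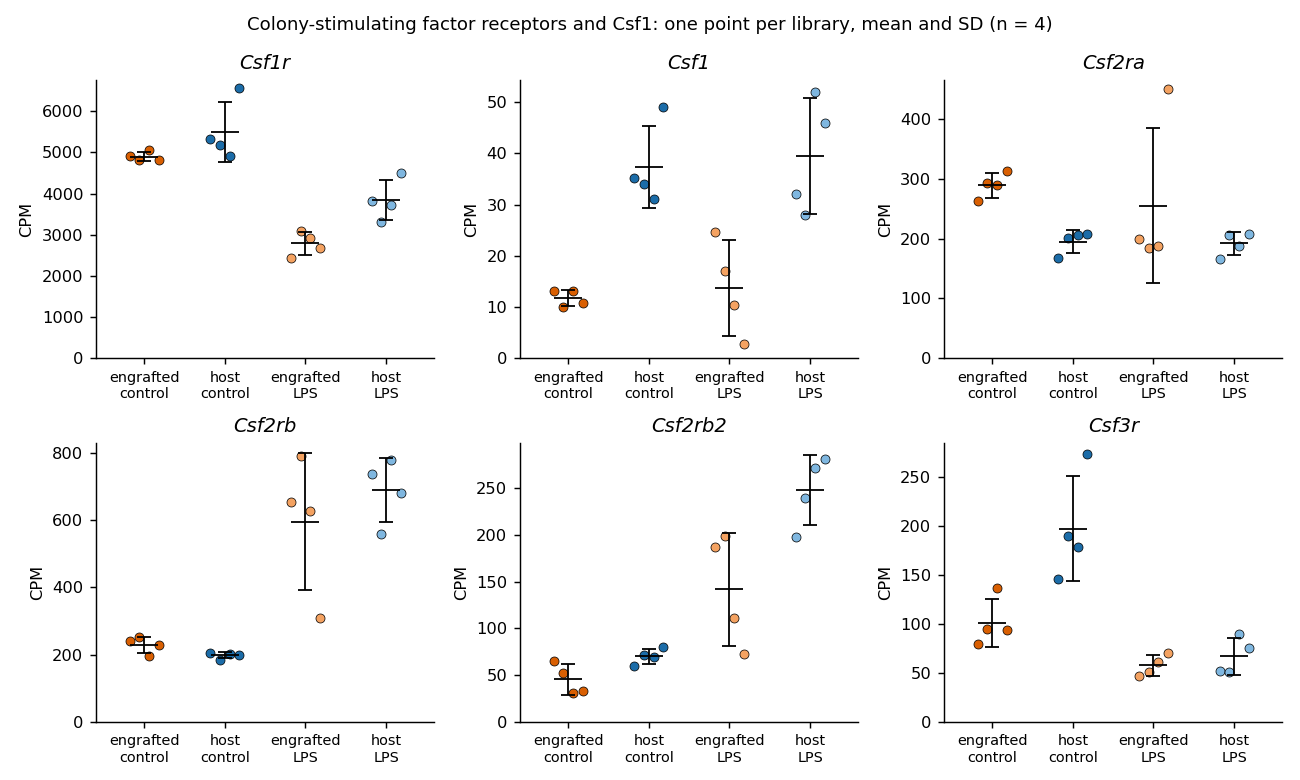
CPM of 6 members in each of the 16 libraries, with 1 point per library, the mean as a horizontal dash and the SD as the error bar (n = 4 per group). Csf2rb and Csf2rb2 are higher after LPS in both populations, Csf3r and Csf1r are lower, and 1 engrafted library after LPS sits at 449 CPM of Csf2ra while the other 3 lie at 185 to 199.

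Csf2ra, the alpha chain gene that gives the GM-CSF receptor its specificity (minus strand, mm9, chr19:61300305-61304321), was higher in engrafted cells without LPS, by under 2-fold. Unchallenged engrafted cells had 262, 292, 290 and 313 CPM in mice 5 to 8, and host microglia 167, 201, 206 and 207 CPM. The groups did not overlap, and within each mouse engrafted cells had 141 to 157% of the host value. The log2 fold change was 0.62 ± 0.13 (SE, edgeR adjusted p = 0.000777).

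After LPS, 1 library decided the Csf2ra values of engrafted cells. Mice 1 to 3 had 199, 185 and 187 CPM, and mouse 4, whose library stands apart, had 449 CPM from 160 reads. Host microglia had 166, 206, 188 and 207 CPM. With all libraries, engrafted cells and host microglia had a log2 difference of 0.42 after LPS (edgeR adjusted p = 0.35), and without the engrafted library of mouse 4 it was 0.01 (edgeR adjusted p = 0.975). The effect of LPS in engrafted cells was -0.24 with that library (edgeR adjusted p = 0.488) and -0.63 without it (edgeR adjusted p = 0.00212), which passed. The interaction went from -0.21 (edgeR adjusted p = 0.773) to -0.62 (edgeR adjusted p = 0.0578). In host microglia LPS gave a log2 fold change of -0.04 (95% interval -0.33 to 0.25, edgeR adjusted p = 0.847).

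Both beta chain genes rose with LPS in both populations. They are neighbours on chromosome 15 (mm9), with Csf2rb on the plus strand at chr15:78156420-78181431 and Csf2rb2 on the minus strand at chr15:78112938-78136151. For Csf2rb, unchallenged engrafted cells had 239, 253, 197 and 227 CPM and challenged ones 653, 792, 627 and 308 CPM, the last in mouse 4. Unchallenged host microglia had 206, 185, 201 and 200 CPM and challenged ones 739, 558, 780 and 682 CPM. Neither population had an overlap between challenged and unchallenged libraries. Csf2rb rose by a log2 fold change of 1.34 ± 0.23 in engrafted cells (SE, edgeR adjusted p = 9.24e-05), which was 2.53-fold, and by 1.79 ± 0.15 in host microglia (SE, edgeR adjusted p = 4.73e-09), which was 3.45-fold. Without the engrafted library of mouse 4 the first value was 1.56 (edgeR adjusted p = 2.13e-08). The means of engrafted cells and host microglia were 229 ± 23.9 and 198 ± 9.41 CPM without LPS and 595 ± 204 and 690 ± 96.3 CPM after it (SD, n = 4 each), and Csf2rb passed neither test between them (log2 fold changes 0.27 and -0.19, edgeR adjusted p = 0.152 and 0.661).

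Csf2rb2 had 65.5, 52.3, 31.1 and 32.4 CPM in unchallenged engrafted cells of mice 5 to 8 and 187, 199, 111 and 72.9 CPM in challenged ones of mice 1 to 4. In host microglia it had 60.0, 71.9, 69.4 and 79.7 CPM without LPS and 198, 240, 272 and 282 CPM after it. It rose by a log2 fold change of 1.60 ± 0.28 in engrafted cells (SE, edgeR adjusted p = 0.00014), which was 3.04-fold, and by 1.80 ± 0.16 in host microglia (SE, edgeR adjusted p = 1.33e-08), which was 3.48-fold. With 1 library left out, the value in engrafted cells ranged from 1.43 to 1.85. The highest unchallenged library in engrafted cells, 65.5 CPM, was close to the lowest challenged one, 72.9 CPM in mouse 4. The interaction was -0.21 for Csf2rb2 (95% interval -0.90 to 0.49, edgeR adjusted p = 0.802) and -0.45 for Csf2rb (95% interval -1.02 to 0.11, edgeR adjusted p = 0.392).

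Csf2rb2 was lower in engrafted cells after LPS, near the threshold. The log2 fold change was -0.76 ± 0.25 (SE, edgeR adjusted p = 0.047), the highest engrafted library, 199 CPM in mouse 2, lay just above the lowest host library at 198 CPM, and the adjusted p was 0.0719 without the engrafted library of mouse 4 and 0.146 without that of mouse 3 (edgeR, both). Leaving out the host library of mouse 2, 3 or 4 gave 0.0617, 0.106 and 0.109 (edgeR), and RLE scaling gave 0.0515 (edgeR). Without LPS the log2 fold change of -0.53 ± 0.21 did not pass (SE, edgeR adjusted p = 0.0598), and with the mouse as a replicate block it was -0.57 with an adjusted p of 0.042 (edgeR). It also passed with library totals (-0.61, edgeR adjusted p = 0.032), with no filter for low counts (-0.59, edgeR adjusted p = 0.0171) and without the engrafted library of mouse 5 (-0.80, edgeR adjusted p = 0.00664).

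The 2 beta chain genes are near-identical copies, so reads can be lost or split between them. In the GENCODE transcripts of mm9 their coding sequences were identical at 95.2% of 2631 aligned bases, and 26.5% of the 50-base windows of the Csf2rb2 coding sequence also occurred in Csf2rb. In the 3′ UTR, where 3′ primed reads start, identity was 84.2% and 4.68% of windows were shared. The longest run the coding sequences have in common is shown, since a read that lies wholly within it matches both genes. It spans coding bases 2083 to 2324 of both, in the last of 14 exons, at chr15:78179007-78179248 on the plus strand for Csf2rb and at chr15:78115060-78115301 on the minus strand for Csf2rb2 (mm9, sequence in the direction of the genes).

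Csf2rb and Csf2rb2: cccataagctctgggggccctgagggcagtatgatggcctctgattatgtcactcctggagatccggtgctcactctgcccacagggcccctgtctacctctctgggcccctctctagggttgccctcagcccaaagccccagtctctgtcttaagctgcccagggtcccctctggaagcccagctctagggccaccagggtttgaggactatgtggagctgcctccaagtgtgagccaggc

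Summed over both genes, reads rose with LPS by a log2 fold change of 1.39 in engrafted cells (edgeR adjusted p = 7.82e-05) and 1.79 in host microglia (edgeR adjusted p = 2.31e-09), and the sum did not differ detectably between populations without LPS (0.09, edgeR adjusted p = 0.662) or after it (-0.33, edgeR adjusted p = 0.4). Without the engrafted library of mouse 4 the sum rose by 1.60 in engrafted cells (edgeR adjusted p = 1.81e-08) and had -0.11 between populations after LPS (edgeR adjusted p = 0.738). The share of Csf2rb2 in the sum was lower in unchallenged engrafted cells, by a test that did not pair the 2 libraries of a mouse. It was 16.2 ± 4.05% in unchallenged engrafted cells (SD, n = 4; 12.5 to 21.5%) and 26.2 ± 2.72% in unchallenged host microglia (SD, n = 4; 22.5 to 28.5%), with no overlap (two-sided exact permutation test, p = 0.029, and 4 libraries against 4 allow no smaller p). After LPS the shares were 19.1 ± 3.04% and 26.6 ± 4.06% (SD, n = 4 each), which overlapped (two-sided exact permutation test, p = 0.057). LPS did not move the share detectably in engrafted cells (p = 0.29) or host microglia (p = 0.83, two-sided exact permutation tests). These 4 p-values are unadjusted. The counted model of Csf2rb ends at 78181431 and the GENCODE annotation at 78184277, so the share covers counted reads only.

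**Figure D3:**
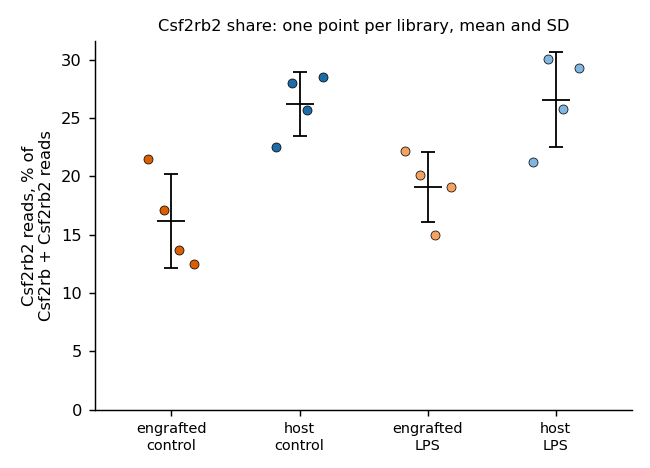
Share of Csf2rb2 among the reads of Csf2rb and Csf2rb2 in percent, with 1 point per library and the mean and SD of each group (n = 4). Unchallenged engrafted libraries lie at 12.5 to 21.5% and unchallenged host libraries at 22.5 to 28.5%.

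Csf3r, the G-CSF receptor gene (plus strand, mm9, chr4:125701903-125722219), was highest in unchallenged host microglia and fell with LPS in both populations. Unchallenged engrafted cells of mice 5 to 8 had 79.6, 94.4, 136 and 93.6 CPM, and host microglia 146, 189, 178 and 273 CPM. Engrafted cells were lower in 4 of 4 mice, at 34.3 to 76.5% of the host value, and the groups did not overlap. The log2 fold change was -0.92 ± 0.18 (SE, edgeR adjusted p = 0.000299), just under 2-fold. It was -1.10 without the engrafted library of mouse 7, -1.03 without the host library of mouse 5 and -1.01 with scaling by library totals, each past 2-fold and still passing. It was -0.73 without the host library of mouse 8 and -0.80 without the engrafted library of mouse 5, and these passed too (edgeR adjusted p = 0.0017 and 0.00165). After LPS, engrafted cells of mice 1 to 4 had 47.0, 51.2, 61.2 and 70.1 CPM and host microglia 51.6, 50.8, 89.3 and 75.1 CPM. These groups overlapped, and the log2 fold change of -0.22 (95% interval -0.73 to 0.28, edgeR adjusted p = 0.605) did not pass.

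LPS lowered Csf3r by a log2 fold change of -1.58 ± 0.21 in host microglia (SE, edgeR adjusted p = 2.65e-06), which was 3.00-fold and called, and by -0.88 ± 0.22 in engrafted cells (SE, edgeR adjusted p = 0.0033), which was 1.84-fold. No challenged library overlapped an unchallenged one of its population. The interaction of 0.69 (95% interval 0.05 to 1.34) had an unadjusted p of 0.0363 and an adjusted p of 0.219 (edgeR), and across its 23 alternatives the adjusted p stayed between 0.108 and 0.424. The summed neutrophil markers given above were lower in host microglia in both states and higher after LPS in both populations. In engrafted cells the mean of Lcn2 rose from 63.3 to 3320 CPM and that of Mmp8 from 0.252 to 26.8 CPM. S100a8, S100a9, Camp, Ltf, Ngp and Retnlg had lower means there after LPS, and Ly6g and Cxcr2 had at most 3 reads in a library. The part of neutrophils in the Csf3r values was not tested.

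The promoters of Csf2rb2 and Csf3r are shown side by side because these receptor genes moved in opposite directions under LPS. Each is the 250 bases before the RefSeq start, in the direction of the gene, at chr15:78305722-78305971 on the minus strand for Csf2rb2 and at chr4:126024409-126024658 on the plus strand for Csf3r (GRCm38.p6). Capitals mark matches to the PU.1 motif GAGGAAG and, in Csf2rb2 nearest to the start, to the GAS element TTCNNNGAA that STAT factors bind. Both strands were searched for these and for AP-1 (TGANTCA), C/EBP (TTGCNNAA), CRE (TGACGTCA) and NF-kB motifs. Both promoters hold the PU.1 letters, on the opposite strand in Csf2rb2, as do 10.6% of the 32841 windows, and the GAS letters occur in 7.02% of windows. The other 4 motifs are found in 6.75%, 9.57%, 1.55% and 3.9% of windows and had no match in these 2. A match is a description of letters and not a binding site. RefSeq promoters were found for 5 of the 8 members, without Csf1r, Csf2rb and Il34.

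Csf2rb2: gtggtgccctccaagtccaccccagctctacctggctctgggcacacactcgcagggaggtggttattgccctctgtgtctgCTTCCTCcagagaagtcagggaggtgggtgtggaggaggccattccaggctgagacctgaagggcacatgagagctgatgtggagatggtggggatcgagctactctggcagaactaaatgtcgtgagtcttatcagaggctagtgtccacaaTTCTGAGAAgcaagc
Csf3r: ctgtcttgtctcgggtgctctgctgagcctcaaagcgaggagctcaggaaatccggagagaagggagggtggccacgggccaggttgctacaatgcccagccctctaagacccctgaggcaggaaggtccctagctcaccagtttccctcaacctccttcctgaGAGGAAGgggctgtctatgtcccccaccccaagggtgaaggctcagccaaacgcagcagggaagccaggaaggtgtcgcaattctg

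Flt3 (minus strand, mm9, chr5:148142317-148212065) was barely detected, and mostly in engrafted cells. Unchallenged engrafted libraries of mice 5 to 8 had 3, 1, 3 and 1 reads, and the host libraries of the same mice 0, 0, 0 and 1. The means were 2.86 ± 1.5 and 0.255 ± 0.511 CPM (SD, n = 4 each; two-sided exact permutation test, p = 0.029, and no smaller p is possible). All of these counts are within the 3 reads that a count of 0 allows, so no fold is given. After LPS engrafted libraries of mice 1 to 4 had 0, 2, 6 and 1 reads and host libraries 0, 0, 1 and 0 (two-sided exact permutation test, p = 0.14). The summed CPM of 8 dendritic cell markers was also higher in unchallenged engrafted cells (21.2 to 41.4 CPM) than in unchallenged host microglia (5.11 to 10.2 CPM). Of these markers, 4 had more than 3 reads in a library of the first group and 1 in a library of the second. Itgae went the other way, with means of 1.12 and 4.75 CPM. The part of dendritic cells in the Flt3 reads was not tested.

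**Figure D4:**
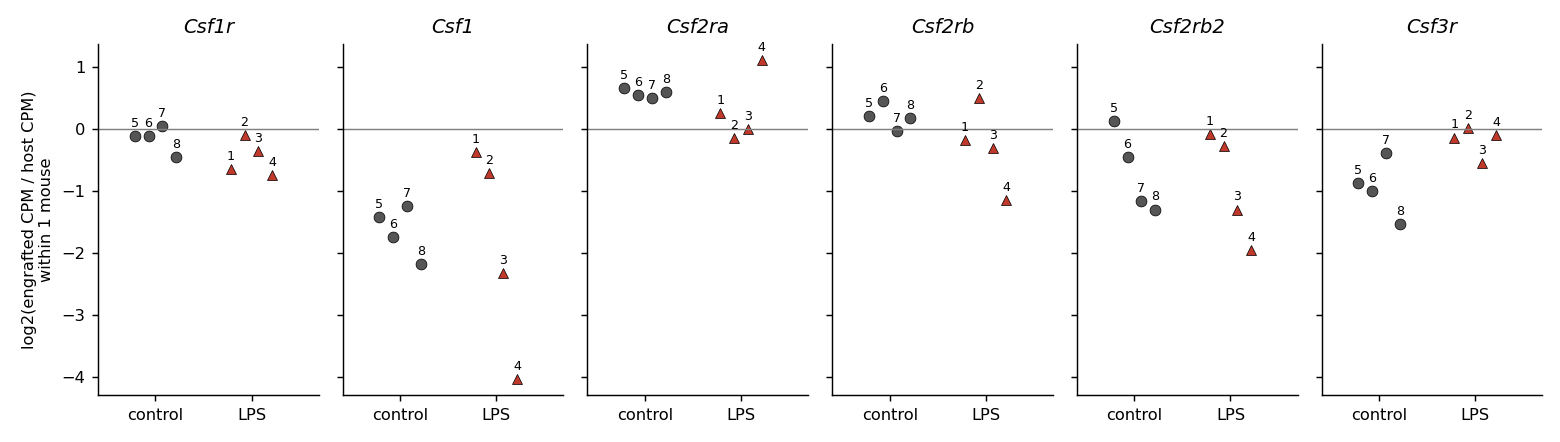
Log2 ratio of the engrafted to the host CPM within each mouse for 6 members, with mice 5 to 8 (control, circles) and mice 1 to 4 (LPS, triangles) numbered. Csf1 lies below 0 in all 8 mice, Csf2ra lies at 0.49 to 0.65 in the control mice, and mouse 4 gives the highest ratio of Csf2ra and the lowest of Csf1r, Csf1, Csf2rb and Csf2rb2.

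For each member that could be tested over all libraries, the 3 genes with the most similar profile are given by Pearson's r of log2(CPM + 1) over the 16 libraries, among 3791 genes (3792 for Csf1) with a mean of at least 50 CPM. The libraries share 4 group means, so r describes mainly how the groups order, and it carries no test. Csf1r was closest to Plxnb2, a semaphorin receptor gene (r = 0.971), to Ctsd, the lysosomal protease cathepsin D (r = 0.959), and to Hps4 (r = 0.952). Plxnb2 had the same group order as Csf1r, with 758, 544, 365 and 189 CPM from unchallenged host microglia to challenged engrafted cells. Csf1 was closest to the cell cycle kinase gene Cdk6 (r = 0.932), Itm2c (r = 0.909) and Pag1 (r = 0.908), and Pag1 had 86.8 and 294 CPM in unchallenged engrafted cells and host microglia and 86.6 and 320 CPM after LPS. Csf2ra was closest to the transcription factor gene Klf2 (r = 0.866), to Nenf (r = 0.849) and to Trappc6b (r = 0.840), the weakest likeness of the 6. These 3 genes spread most in challenged engrafted cells, with 953 ± 789, 88.4 ± 38.3 and 70.4 ± 35.4 CPM (SD, n = 4 each). That group holds the high Csf2ra value of mouse 4, and r was not computed without that library. Csf2rb was closest to Dst (r = 0.985), Kri1 (r = 0.976) and the transcription factor gene Klf13 (r = 0.971). Csf2rb2 was closest to Slc39a14, a zinc and iron transporter gene (r = 0.958), to the translation factor gene Eif3b (r = 0.948) and to the translocon gene Sec61a1 (r = 0.940). Csf3r was closest to Slc25a45 (r = 0.941), Arhgap4 (r = 0.940) and Vps37b (r = 0.939).

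Among 13 other ligands and receptors of the family, most had too few reads. Il3ra, the alpha chain gene of the IL-3 receptor that pairs with the beta chains above, was the only one called, in engrafted cells. Engrafted cells had 14.1 ± 1.88 CPM without and 35.5 ± 5.76 CPM after LPS, where host microglia had 10.1 ± 3.79 and 10.7 ± 1.63 CPM (SD, n = 4 each). The log2 fold change with LPS was 1.27 in engrafted cells (edgeR adjusted p = 0.00188) and 0.10 in host microglia (edgeR adjusted p = 0.85), and the difference between these effects, 1.17, did not pass (edgeR adjusted p = 0.147). After LPS engrafted cells were above host microglia by 1.73 on the log2 scale (edgeR adjusted p = 0.000232). Csf2, the gene for GM-CSF itself, had 0 reads in all 16 libraries. Csf3, the gene for G-CSF and thus for the ligand of Csf3r, was singled out after its values were seen. It had 0 reads in all 8 unchallenged libraries, 11.2 to 118 CPM after LPS in engrafted cells and 2.29 to 3.99 CPM after LPS in the host, and it was below the filter for the tests. The challenged host values came from at most 4 reads per library, near the limit of 3 reads.

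Of 25 genes of CSF1R signalling and turnover, Fgr, a kinase of the Src family, was the only one called. With LPS that was 1 of 22 tested in engrafted cells and 1 of 23 in host microglia, against 21.5% and 18% of all genes. None was called between populations without or after LPS or for the interaction, against 11%, 11.1% and 4.95% of all genes. Fgr rose with LPS from 10.6 to 216 CPM in engrafted cells (log2 fold change 4.31, edgeR adjusted p = 2.36e-10) and from 21.0 to 221 CPM in host microglia (log2 fold change 3.42, edgeR adjusted p = 5.19e-11). With LPS, 6 genes of the list passed upwards and 2 downwards of 22 tested in engrafted cells, and 6 upwards and 4 downwards of 23 in host microglia, where 19.5% and 19.3% of all tested genes passed upwards and downwards in engrafted cells and 19.2% and 20.5% in host microglia. Without LPS, 1 of 22 passed as higher and 5 as lower in engrafted cells, against 13.7% of all genes each way, and after LPS 0 of 25 as higher and 3 as lower, against 9.52% and 7.64%. None of the 25 passed for the interaction. The median log2 fold change of the list with LPS was 0.02 in engrafted cells and 0.03 in host microglia, beside -0.01 and 0.01 over all tested genes. Between populations it was -0.18 without and 0.04 after LPS, beside 0.02 and -0.01.

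In the list of 15 genes of the JAK and STAT pathway used by GM-CSF and G-CSF receptors, LPS called 3 of 13 tested genes upwards in engrafted cells and 5 of 14 in host microglia, and none downwards. All tested genes were called upwards at 10.2% and 7.66%. Socs3, an inhibitor that binds the G-CSF receptor and dampens STAT3 signalling, was the gene of this list called for the interaction. Without LPS, engrafted cells had 133 ± 28.9 CPM where host microglia had 523 ± 69.5 CPM, and after LPS the values were 1570 ± 480 and 1400 ± 471 CPM (SD, n = 4 each). Without LPS the log2 fold change was -1.90 (edgeR adjusted p = 2.72e-10), with LPS it rose by 3.52 in engrafted cells (edgeR adjusted p = 9.75e-10) and 1.41 in host microglia (edgeR adjusted p = 3.83e-06), and the interaction of 2.10 was called (edgeR adjusted p = 9.14e-05). Stat3, the main factor downstream of the G-CSF receptor, rose by 1.49 in engrafted cells and 1.19 in host microglia (edgeR adjusted p = 2.62e-05 and 2.72e-05). Pim1, a kinase gene that STAT factors induce, rose by 2.46 and 2.76 (edgeR adjusted p = 4.95e-06 and 5.31e-07), and it was higher in engrafted cells without LPS by 1.92 (edgeR adjusted p = 2.05e-05) and after LPS by 1.61 (edgeR adjusted p = 0.003). Socs2, another inhibitor, rose in host microglia by 2.25 (edgeR adjusted p = 0.000142), and Ptpn11, which encodes the phosphatase SHP-2, by 1.27 (edgeR adjusted p = 0.000634). In engrafted cells Socs2 had means of 4.75 CPM without and 43.7 CPM after LPS and was below the filter for the test, and Ptpn11 had a log2 fold change of 0.06 (edgeR adjusted p = 0.922). The interaction passed neither for Ptpn11 (-1.22, edgeR adjusted p = 0.14) nor for Socs2 (0.74, edgeR adjusted p = 0.698). The median log2 fold change with LPS was 0.38 in engrafted cells and 0.55 in host microglia over the tested genes of this list. Over all tested genes it was -0.01 and 0.01.

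Of 14 transcription factor genes known at Csf1r and other myeloid receptor genes, LPS called 6 of 12 tested in engrafted cells, 2 upwards and 4 downwards, and 7 of 12 in host microglia, 3 upwards and 4 downwards. Over all tested genes 10.2% and 11.3% were called upwards and downwards in engrafted cells and 7.66% and 10.4% in host microglia. The medians were -0.91 and -0.68, beside -0.01 and 0.01 over all genes. Cebpb, a factor of inflammatory myeloid cells, rose by 2.15 in engrafted cells and 1.29 in host microglia (edgeR adjusted p = 3.24e-06 and 3.21e-07), and Ets2 by 1.78 and 1.55 (edgeR adjusted p = 1.09e-05 and 1.97e-05). Runx1, which acts at an intronic enhancer of Csf1r, rose in host microglia by 1.31 (edgeR adjusted p = 9.69e-07) and had 0.59 in engrafted cells (edgeR adjusted p = 0.102). The difference between these effects, -0.73, did not pass (edgeR adjusted p = 0.241), and challenged engrafted libraries spread from 185 to 778 CPM of Runx1. Cebpa, a factor of granulocyte and monocyte progenitors, had log2 fold changes of -1.16 in engrafted cells and -1.96 in host microglia and fell in both (edgeR adjusted p = 0.00121 and 1.33e-07), and Maf fell by 1.57 and 1.35 (edgeR adjusted p = 3.71e-06 and 1.11e-05). Fli1 fell by 1.01 in engrafted cells (edgeR adjusted p = 0.00216) and by 0.98 in host microglia, which passed just under 2-fold (edgeR adjusted p = 0.00131). Mitf fell by 1.03 in host microglia (edgeR adjusted p = 0.0277) and had -1.02 in engrafted cells, which did not pass (edgeR adjusted p = 0.0733). Challenged engrafted libraries had 19.6 to 49.4 CPM of Fli1 and 3.66 to 19.6 CPM of Mitf. Neither gene was fitted without the engrafted library of mouse 4.

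Mef2c, a factor of the microglia program, had means of 300 ± 46.1 and 315 ± 61.8 CPM in unchallenged engrafted cells and host microglia (SD, n = 4 each, edgeR adjusted p = 0.975) and fell by 2.38 in engrafted cells and by 1.23 in host microglia after LPS (edgeR adjusted p = 4.5e-08 and 1.73e-05). The interaction of -1.16 was called (edgeR adjusted p = 0.0225). After LPS Mef2c was lower in engrafted cells by a log2 fold change of -1.16 (edgeR adjusted p = 0.00208), and Cebpb was higher by 1.15 (edgeR adjusted p = 0.00549). Challenged engrafted libraries spread widely in Cebpb, with 1350 ± 651 CPM (SD, n = 4; median 1120, range 843 to 2300). Challenged host microglia had 619 ± 56.1 CPM (SD, n = 4). Whether the Cebpb call holds without the engrafted library of mouse 4 was not tested. Egr2 was lower in engrafted cells without LPS (log2 fold change -1.79, edgeR adjusted p = 1.98e-06) and after it (-1.89, edgeR adjusted p = 0.000433), and it was the only gene of this list called between populations without LPS. Spi1, which encodes PU.1 and is named here for the motif shown above and not for its values, had 655 and 643 CPM in unchallenged engrafted cells and host microglia and 908 and 715 CPM after LPS, and passed none of the 5 tests.

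**Figure D5:**
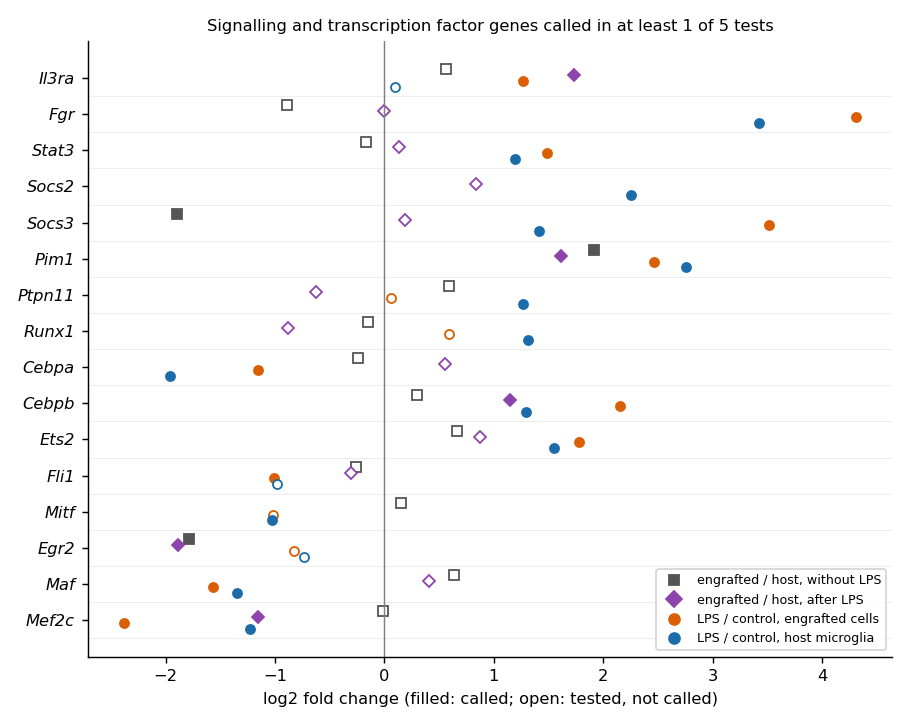
Log2 fold changes from edgeR of the 16 genes of the 4 lists that were called in at least 1 of the 5 tests. Filled symbols are called, open symbols were tested and not called, and a missing symbol was not tested. In engrafted cells under LPS, Fgr, Socs3 and Pim1 lie farthest to the right and Mef2c farthest to the left.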

How the data were processed

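RNA of sorted engrafted cells and host microglia was sequenced from 3′ primed MARS-seq derived libraries. The authors mapped reads to NCBI37 (mm9) with HISAT (0.1.5 in the submitters' processing notes) and counted them on RefSeq exons, by strand, with HOMER. The deposited values are raw counts per gene, and no removal of PCR duplicates is named. The members and gene lists were chosen with earlier results of these data known. Genes were filtered (edgeR 4.0.16, minimum count 10, minimum total 15), scaled by TMM and tested by quasi-likelihood with Benjamini-Hochberg adjustment over all tested genes, in R 4.3.3 with a prior count of 0.125. No mouse term was used, since the study names none. Both libraries of a number come from 1 mouse, and Pearson's r of their deviations from the group means was -0.0335 to 0.194. Members below the filter were compared by two-sided exact permutation tests. The SE of a fold change was back-calculated from the log2 fold change and the F statistic of the same fit. The 95% intervals were built from that SE. The tests were checked on simulated counts. Named were the 8 members, the 3 most similar genes of each tested member, and each list gene called in at least 1 test. Replicates are separate mice. Alternatives were RLE factors, library totals, DESeq2 1.42.0, no or a stricter filter, 1 fit of 16 libraries, each library left out, the mouse as a block and a prior count of 2.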

Additional observations from a re-analysis of the deposited data

Results flagged for a closer look

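In each of 25 sets of 4 libraries of 1 member, the highest and the lowest value were compared with the others by Dixon's criterion, which chance passes in about 1 set of 20. A gap was passed in 2 sets, both of Csf2ra. The engrafted library of challenged mouse 4 had 449 CPM, against 185 to 199 CPM in the other 3 libraries of its group. The host library of unchallenged mouse 5 had 167 CPM, against 201 to 207 CPM in the other 3. The first is the library with the fewest reads, and the second the one with the highest neuronal marker sum. The part of either in these values was not tested.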

How the results depend on the processing

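The calls of Csf2rb and Csf2rb2 with LPS in both populations, of Csf3r with LPS in host microglia and of Csf1 without LPS kept their direction and their side of both thresholds under every alternative that could test them. The number of members called between populations without LPS was 2 with library totals, 0 with at least 10 reads in every library, a filter that removes Csf1 from the test, and 1 to 2 with 1 library left out, against 1. After LPS it was 0 with that filter and 0 to 1 with 1 library left out. Leaving out 1 library gave ranges that crossed 0 on the log2 scale for Csf2rb between populations after LPS (-0.35 to 0.02, above 0 without the engrafted library of mouse 4), for LPS in host microglia of Csf2ra (-0.09 to 0.04) and Csf1 (-0.10 to 0.21), and for the interaction of Csf1 (-0.15 to 0.44) and Csf2rb2 (-0.39 to 0.06). None of these passed in the first place. The Flt3 difference in mean CPM ranged from 1.91 to 2.99 between populations without LPS (exact permutation p = 0.057 without the host library of mouse 5, 6 or 7) and from 1.45 to 4.05 after LPS, and from -1.11 to 1.49 for LPS in engrafted cells and -0.255 to 0.302 in host microglia. For Csf1 with LPS in engrafted cells it ranged from -1.68 to 5.59 CPM.

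Over all genes, no filter gave 1454 calls between populations without LPS and 1352 after it, against 883 and 868, and at least 10 reads in every library gave 402 and 381. The same filter gave 821 calls for LPS in engrafted cells, 871 in host microglia and 249 for the interaction, against 1637, 1484 and 438. With the mouse as a replicate block Csf1 had -1.56 without LPS and -1.33 after it, and the block changed no call of a member. The prior count of 2 was chosen after seeing the data. Depth limits Il34, Flt3 and Csf1, whose libraries held from 0 to 48 reads.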
